A study of Mus musculus with 60 samples.

Results

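The 8 genes described here are Ppp1r1b, Adora2a, Drd2, Lrrc10b, Rasd2, Rarb, Bcl11b and Rasgrp2, members of the set of striatum-enriched transcripts that is known for its decline in Huntington's disease, read here in hippocampus instead of striatum. They were taken by name as rows of a hippocampal expression table of 24508 genes, and all 8 were among the 14446 genes that averaged 0.5 RPKM or more (reads per kilobase of gene, scaled for sequencing depth). They were selected on values already known, the RPKM of the 18 libraries and the fold between genotypes, so their difference between genotypes is described below and not tested. Hippocampus of 30-week-old R6/1 mice was compared with that of wild-type (WT) mice of the same age on the same mixed CBA and C57BL/6 background. R6/1 mice carry, in every cell, a transgene made of the start of the human huntingtin gene with its own promoter and an expanded CAG repeat, and the mouse huntingtin gene is still present in both groups. RNA-seq was made from 9 biological replicates per genotype, with between 12299434 and 16457022 reads on genes per WT library and between 13260311 and 16736544 per R6/1 library. Lamin B1 ChIP-seq of the same tissue, from 3 replicates per genotype that were each a pool of 5 mice, was deposited as 1 list of lamin B1 domains per genotype.

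Medium spiny neurons, the projection neurons of the striatum, fall into a direct-pathway type with the dopamine receptor Drd1 and an indirect-pathway type with the dopamine receptor Drd2 and the adenosine receptor Adora2a. Drd1 and Adora2a raise cyclic AMP and protein kinase A activity, and Drd2 lowers it. The kinase turns the product of Ppp1r1b into an inhibitor of protein phosphatase 1, while Bcl11b and Rarb act on transcription and Rasd2 and Rasgrp2 belong to small GTPase signalling. Outside the striatum several of the 8 are also used by hippocampal neurons, Bcl11b in particular by granule cells of the dentate gyrus and pyramidal cells of CA1.

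Across the 8 genes, 7 had a lower mean in R6/1 than in WT and Rarb had a slightly higher one. For 4 of the 8, Lrrc10b, Rasd2, Ppp1r1b and Bcl11b, every R6/1 library lay below every WT library. Of all tested genes, 6.38% were lower in this way without overlap, and 11.9% were without overlap in either direction. Nothing is read from the count of 4 against these shares, because the genes were chosen with this difference known. For Adora2a, Drd2, Rasgrp2 and Rarb the genotypes overlapped. In bulk tissue, fewer cells of a type and less RNA per cell cannot be told apart.

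**Figure D1:**
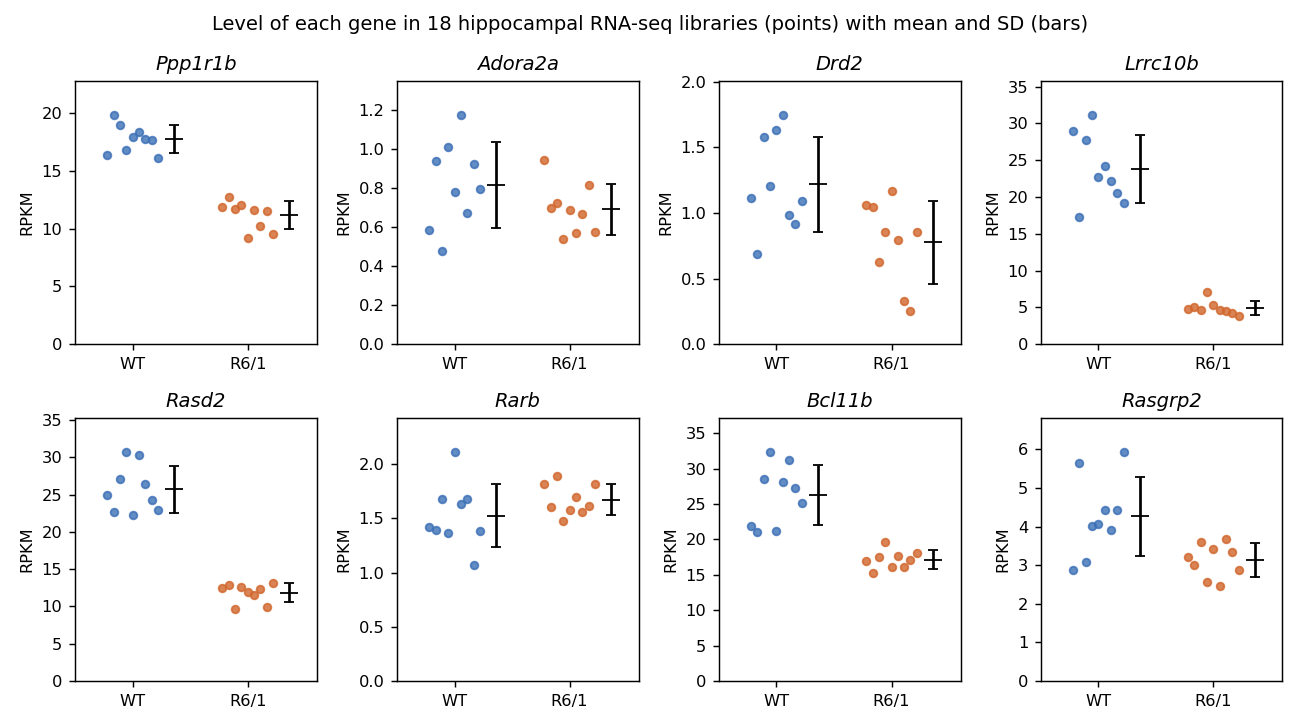
Level of each of the 8 genes in RPKM (y axis, from 0) in 9 WT and 9 R6/1 hippocampal libraries (points), with the mean and SD of each genotype as bars. The points of Ppp1r1b, Lrrc10b, Rasd2 and Bcl11b form separate clouds, with Lrrc10b at 17.3 to 31.1 RPKM in WT and 3.85 to 7.14 RPKM in R6/1, while those of Adora2a, Drd2, Rarb and Rasgrp2 overlap.

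In WT hippocampus the genes fell into a high and a low set. Bcl11b (26.3 RPKM), Rasd2 (25.7 RPKM), Lrrc10b (23.8 RPKM) and Ppp1r1b (17.7 RPKM) led, and each overlapped its neighbour in this order. Rasgrp2 (4.26 RPKM) stood apart on both sides, and Rarb (1.53 RPKM), Drd2 (1.22 RPKM) and Adora2a (0.818 RPKM) followed with overlapping ranges. In R6/1 the order was Bcl11b, Rasd2, Ppp1r1b, Lrrc10b, Rasgrp2, Rarb, Drd2 and Adora2a. Lrrc10b thus moved below Ppp1r1b, and in R6/1 it was lower than Ppp1r1b in all 9 libraries, whereas in WT it was higher in 8 of 9. In R6/1 only Rasd2 with Ppp1r1b and Drd2 with Adora2a overlapped as neighbours. Against all tested genes, the mean of Bcl11b over the 18 libraries ranked at percentile 76.7 and that of Adora2a at percentile 5.25.

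Lrrc10b, which encodes a leucine-rich repeat protein, showed the largest difference of the 8. It is a gene of 1 exon on the minus strand of chromosome 19 (10530579 to 10531937, build NCBIM37, as for all positions below). The 9 WT libraries ran from 17.3 through a median of 22.8 to 31.1 RPKM, and the 9 R6/1 libraries from 3.85 through 4.62 to 7.14 RPKM. The highest R6/1 library was therefore well under the lowest WT library. The WT mean was 23.8 ± 4.64 RPKM and the R6/1 mean 4.92 ± 0.936 RPKM (SD, n = 9 each), so that R6/1 held 20.7% of the WT level. On the scale of log2(RPKM + 0.5), used for all log2 differences below, R6/1 minus WT was -2.16 (SE 0.109), and 0.0138% of all tested genes had a lower value.

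Rasd2 encodes Rhes, a striatum-enriched small GTPase of the Ras family that is known to bind mutant huntingtin. It lies on the plus strand of chromosome 8 (77737843 to 77748012). WT libraries ran from 22.3 through 25.0 to 30.7 RPKM and R6/1 libraries from 9.59 through 12.4 to 13.2 RPKM, with a wide gap between the genotypes. The means were 25.7 ± 3.16 RPKM and 11.8 ± 1.30 RPKM (SD, n = 9 each), or 46.0% of WT, and the log2 difference was -1.09 (SE 0.0726).

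The bases just upstream of the starts of these 2 genes are shown because they had the largest differences, and both windows are rich in G and C. The RefSeq promoter table (assembly GRCm38.p6) held windows for 6 of the 8 genes, those of Ppp1r1b and Adora2a not among them. Each run below is the 250 bases before the start, 5′ to 3′ on the gene's strand, and was found letter for letter on build NCBIM37. Lrrc10b is at chr19:10531938-10532187 (minus strand) and Rasd2 at chr8:77737593-77737842 (plus strand). Capitals mark the GC box, GGGCGG, on either strand.
Lrrc10b: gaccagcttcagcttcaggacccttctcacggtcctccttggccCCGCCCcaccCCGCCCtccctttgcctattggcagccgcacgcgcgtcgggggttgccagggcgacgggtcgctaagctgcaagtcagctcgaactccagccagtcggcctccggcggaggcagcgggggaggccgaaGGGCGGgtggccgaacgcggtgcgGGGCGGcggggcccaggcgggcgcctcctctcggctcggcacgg
Rasd2: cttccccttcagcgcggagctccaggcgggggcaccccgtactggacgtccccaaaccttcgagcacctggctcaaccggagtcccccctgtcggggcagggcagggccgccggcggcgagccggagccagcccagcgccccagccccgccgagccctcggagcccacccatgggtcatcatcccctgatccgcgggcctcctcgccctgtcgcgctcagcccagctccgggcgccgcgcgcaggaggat
The Lrrc10b window held 4 GC boxes and 1 CCAAT box (CCAAT on either strand), and its GC content was 74.0%. The Rasd2 window had a GC content of 75.2% and no GC box in these letters. The median GC content over all 32851 windows of this length was 52.4%. A GC box was found in 32.7% of those windows and in 3 of the 6 windowed genes, Lrrc10b, Drd2 and Rasgrp2, and a CCAAT box in 33.8% of windows and in Lrrc10b alone of the 6. The TATA box TATAAA (12.4% of windows), the cAMP response element TGACGTCA (1.55%), the AP-1 site TGANTCA (6.75%) and the EGR site GCGTGGGCG (0.536%) were matched, on either strand, in none of the 6. These are matches of letters and say nothing of which factor binds.

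Ppp1r1b encodes the phosphoprotein of medium spiny neurons that blocks protein phosphatase 1 once protein kinase A has acted on it. It lies on the plus strand of chromosome 11 (98209718 to 98219110) and overlaps 1700003D09Rik on the other strand. WT libraries ran from 16.1 through 17.8 to 19.8 RPKM and R6/1 libraries from 9.19 through 11.6 to 12.7 RPKM, again without overlap. The means of 17.7 ± 1.21 and 11.1 ± 1.20 RPKM (SD, n = 9 each) put R6/1 at 62.8% of WT, with a log2 difference of -0.65 (SE 0.0585). Its WT spread was the tightest of the 8, with a coefficient of variation of 6.80%.

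Bcl11b encodes a zinc finger transcription factor that medium spiny neurons need to mature. It lies on the minus strand of chromosome 12 (109148613 to 109241812). WT libraries ran from 21.1 through 27.2 to 32.4 RPKM and R6/1 libraries from 15.2 through 17.1 to 19.7 RPKM. The genotypes did not overlap, but the distance between the lowest WT and the highest R6/1 library was small. Means were 26.3 ± 4.25 and 17.2 ± 1.32 RPKM (SD, n = 9 each), which is 65.2% of WT and a log2 difference of -0.59 (SE 0.0788).

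Rasgrp2 encodes an exchange factor that calcium and diacylglycerol regulate and that loads the GTPase Rap1 with GTP. It lies on the plus strand of chromosome 19 (6399340 to 6415216) and overlaps Gm14965 on the other strand. WT libraries ran from 2.87 through 4.07 to 5.93 RPKM and R6/1 libraries from 2.45 through 3.22 to 3.68 RPKM. The genotypes overlapped, with 7 of 9 WT libraries above the highest R6/1 library. Means were 4.26 ± 1.02 and 3.13 ± 0.435 RPKM (SD, n = 9 each), or 73.3% of WT, with a log2 difference of -0.37 (SE 0.111).

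The receptors that define indirect-pathway neurons were both scarce in this tissue. Drd2 (chromosome 9, 49148732 to 49216282, plus strand), whose receptor couples to inhibitory G protein, ran from 0.688 through 1.12 to 1.74 RPKM in WT and from 0.256 through 0.854 to 1.16 RPKM in R6/1. The genotypes overlapped, and 3 R6/1 libraries lay below the lowest WT library. Means were 1.22 ± 0.359 and 0.776 ± 0.318 RPKM (SD, n = 9 each), or 63.7% of WT, with a log2 difference of -0.45 (SE 0.158) that the pseudocount pulls towards 0 for so low a gene (-0.65 with a pseudocount of 0.1). These values rest on 16 to 40 reads per WT library and 6 to 27 per R6/1 library. By counting error alone the coefficient of variation would be 19.4% in WT and 22.9% in R6/1, against 29.5% and 41.0% observed.

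Adora2a (chromosome 10, 74779688 to 74797533, plus strand), the adenosine receptor that couples to stimulatory G protein, ran from 0.477 through 0.794 to 1.17 RPKM in WT and from 0.538 through 0.687 to 0.946 RPKM in R6/1. All 9 R6/1 libraries fell within the WT range. Means were 0.818 ± 0.219 and 0.692 ± 0.129 RPKM (SD, n = 9 each), 84.6% of WT, with a log2 difference of -0.13 (SE 0.101). The reads numbered 16 to 48 per WT and 23 to 44 per R6/1 library, and the R6/1 coefficient of variation of 18.7% was close to the 18.0% that counting error alone would give. The difference between the means was smaller than the SD of either genotype.

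Rarb encodes a retinoic acid receptor, a nuclear receptor that pairs with retinoid X receptors on DNA. It lies on the minus strand of chromosome 14 (17263356 to 17651381). WT libraries ran from 1.07 through 1.42 to 2.11 RPKM and R6/1 libraries from 1.47 through 1.61 to 1.89 RPKM. All 9 R6/1 libraries were above the WT median, but also within the WT range. Means were 1.53 ± 0.293 and 1.67 ± 0.142 RPKM (SD, n = 9 each), 110% of WT, with a log2 difference of 0.11 (SE 0.0795). Rarb thus differed in direction from the other 7 genes, by an amount within the spread between libraries.

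The window of Rarb is shown because its start is known for a retinoic acid response element, through which the receptor acts on its own gene. It covers chr14:17407991-17408240 (minus strand, the 250 bases before a start inside the annotated gene body). Capitals mark the only match of the direct repeat, GTTCA on both sides of any 6 bases.
Rarb: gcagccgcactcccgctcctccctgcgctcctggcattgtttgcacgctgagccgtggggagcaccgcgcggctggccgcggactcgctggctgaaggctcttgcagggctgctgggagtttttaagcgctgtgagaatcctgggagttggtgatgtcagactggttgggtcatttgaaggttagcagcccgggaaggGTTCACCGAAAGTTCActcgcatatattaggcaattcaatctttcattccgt
The matched letters, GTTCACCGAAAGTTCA, stand 52 to 37 bases before the start. Only 22 of the 32851 windows (0.067%) held this direct repeat on either strand, and among the 6 windowed genes Rarb was the only one.

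The spread over libraries was wider than counting error for the well-covered genes. Lrrc10b had 497 to 1039 reads per WT library, for which counting error alone gives a coefficient of variation of 3.78%, against 19.5% observed. Bcl11b, with 2207 to 4125 reads per WT library, showed 16.2% against 1.84%. In R6/1 the observed value of Bcl11b was 7.69% against 2.16%, and that of Rarb, 8.48%, was under the 10.0% that counting error alone gives.

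Genes of the same pathways were then tested with limma across all 14446 genes (Benjamini-Hochberg adjusted p under 0.05, written as called). Over all tested genes 24.8% were called higher and 23.5% lower in R6/1, together 48.3%, with a median log2 difference of 0.00. Of the calls 51.4% were higher, and 66.9% with each library scaled by its own read total. Of the 4 tested receptors for dopamine and adenosine beside Drd2 and Adora2a, all 4 fell, with a median log2 difference of -0.57. Drd1, the receptor of direct-pathway neurons, fell from 2.10 ± 0.427 to 1.10 ± 0.203 RPKM (SD, n = 9 each; log2 difference -0.69, limma adjusted p 1.95e-05). Drd5, its close relative, fell from 3.99 to 2.35 RPKM (-0.66, limma adjusted p 0.00122), and Adora2b from 2.31 to 1.70 RPKM (-0.35, limma adjusted p 0.0108). Adora1, the abundant inhibitory adenosine receptor of hippocampal neurons, fell from 51.1 ± 5.20 to 36.3 ± 1.89 RPKM without overlap (-0.49, limma adjusted p 1.96e-07). Drd3, Drd4 and Adora3 had a mean under 0.5 RPKM and were not tested. All 4 receptors that fell had a higher WT mean than Drd2 and Adora2a.

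A list of 29 other genes of medium spiny neurons split unevenly. Of its 25 tested genes 11 fell, 1 rose and 13 were not called, with a median log2 difference of -0.22. The 11 include Drd1, already counted above, and Arpp21, which is counted again below with the signalling genes around Ppp1r1b. The largest falls were in Penk, the precursor of enkephalin (16.3 to 5.19 RPKM, log2 difference -1.56, limma adjusted p 4.10e-10), and in Scn4b, a sodium channel beta subunit (9.73 to 3.37 RPKM, -1.38, limma adjusted p 1.40e-08). Pdyn, the precursor of dynorphin, fell from 6.65 to 2.65 RPKM (-1.20, limma adjusted p 3.96e-08), and Kcnip2, a subunit of A-type potassium channels, from 69.9 to 36.8 RPKM (-0.91, limma adjusted p 1.74e-08). Sp9, a transcription factor of developing striatal neurons, rose from 1.68 to 2.66 RPKM (0.52, limma adjusted p 0.000315). Other signalling genes of the list were divided. Gng7, a G protein gamma subunit, fell by 0.73 (limma adjusted p 4.03e-09), and Pde1b (-0.25, limma adjusted p 0.00289) and Ptpn5 (-0.24, limma adjusted p 0.000168) fell by less. Pde10a, Rgs9, Adcy5 and Gnal were not called, with log2 differences of -0.07, -0.12, 0.08 and -0.05. Adcy5 was called higher when libraries were quantile-normalized (log2 difference 0.10) or each divided by its sum of reads (own-total scaling, 0.15), and when the first WT replicate was left out (0.10). Strn was called higher with own-total scaling (0.16), so that up to 3 genes of the list rose, depending on the scaling.

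**Figure D2:**
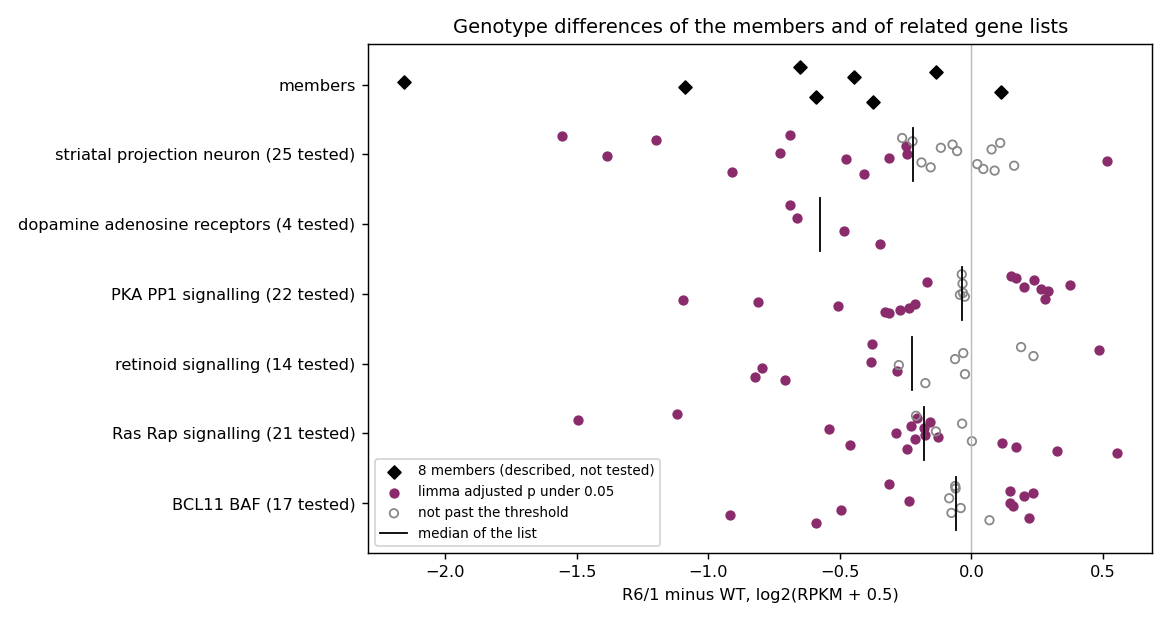
Difference R6/1 minus WT on the scale of log2(RPKM + 0.5) (x axis) for the 8 genes (black diamonds, described only) and for the tested genes of 6 related lists (filled: limma adjusted p under 0.05; open: not past it), with a bar at each list's median. The dopamine and adenosine receptors all lie left of 0 with a median of -0.57. The signalling genes around Ppp1r1b lie on both sides with a median of -0.03.

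Signalling around Ppp1r1b moved in both directions. The 22 tested genes were those for G proteins, protein kinase A, protein phosphatase 1 and calcineurin, and also Cdk5, Cdk5r1, Arpp19 and Arpp21. Of these 22, 8 rose and 9 fell, with a median log2 difference of -0.03. Cdk5 (-0.24), Cdk5r1 (-0.27), Arpp19 (-0.33) and Arpp21 (-0.31) were among the 9 that fell. Ppp1r1a, the sister inhibitor of protein phosphatase 1, fell from 48.0 ± 7.16 to 22.1 ± 2.76 RPKM (SD, n = 9 each; -1.10, limma adjusted p 8.15e-09). The calcineurin subunits Ppp3ca (-0.81, limma adjusted p 1.79e-09) and Ppp3r1 (-0.51, limma adjusted p 2.17e-06) also fell; calcineurin removes the phosphate that makes the Ppp1r1b product an inhibitor. The kinase subunit Prkacb rose (0.38, limma adjusted p 5.87e-06). So did the kinase subunits Prkar1a (0.20, limma adjusted p 0.000246), Prkar1b (0.26, limma adjusted p 0.00044) and Prkar2a (0.29, limma adjusted p 8.3e-07). Prkaca and Prkar2b were not called, with log2 differences of -0.03 and -0.03. The catalytic subunits Ppp1ca and Ppp1cb were not called, with log2 differences of -0.04 and -0.02, whereas Ppp1cc rose by 0.28 (limma adjusted p 1.95e-05).

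Beside Rasd2 and Rasgrp2, 13 of 21 tested genes of Ras and Rap signalling fell and 4 rose, with a median log2 difference of -0.18. Rasd1, the closest relative of Rasd2, fell from 16.5 ± 3.55 to 5.56 ± 1.39 RPKM (SD, n = 9 each; -1.50, limma adjusted p 7.30e-08). Rasgrp1, a relative of Rasgrp2 that acts on Ras, fell from 158 ± 14.5 to 72.9 ± 9.02 RPKM (-1.12, limma adjusted p 9.29e-11). Both did so without overlap between genotypes. Sipa1l1, a Rap GTPase-activating protein of the synapse, fell by 0.54 (limma adjusted p 6.84e-10), and Nf1, a GTPase-activating protein for Ras, rose by 0.55 (limma adjusted p 2.78e-07). The smaller calls of Rap1a, Rap1gap and Rasgrp4 were among those lost with own-total scaling, which left 9 lower.

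Among the partners of Rarb, 6 of 14 tested retinoid genes fell and 1 rose, with a median log2 difference of -0.23. Rxra, which pairs with the retinoic acid receptors, rose from 7.89 ± 0.741 to 11.2 ± 0.743 RPKM without overlap (SD, n = 9 each; 0.48, limma adjusted p 3.25e-07). The sister receptor Rara fell from 3.68 to 2.72 RPKM (-0.38, limma adjusted p 0.000274). Rarg had 2.89 RPKM in WT against 3.37 RPKM in R6/1 (0.19, limma adjusted p 0.0788), and it passed the threshold with quantile normalization (0.23), own-total scaling (0.25) and the replicate block (0.19), and without the third WT (0.23) or the fourth R6/1 replicate (0.23). The falls were largest in Cyp26b1, which breaks down retinoic acid (-0.82, limma adjusted p 0.000516), Stra6, a receptor for the retinol carrier (-0.80, limma adjusted p 0.000469), and Dhrs3, which returns retinal to retinol (-0.71, limma adjusted p 0.000152).

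Around Bcl11b, 17 genes were tested, its relative Bcl11a and subunits of BAF chromatin remodelling complexes. Of these, 5 fell and 6 rose, with a median log2 difference of -0.06. Bcl11a fell from 16.9 ± 1.29 to 13.5 ± 0.604 RPKM (SD, n = 9 each; -0.31, limma adjusted p 6.67e-06). The BAF subunits Dpf3 (-0.92, limma adjusted p 4.51e-07), Brd9 (-0.59, limma adjusted p 8.94e-07) and the neuron-specific Actl6b (-0.50, limma adjusted p 4.52e-07) fell, and Smarcc1 rose (0.23, limma adjusted p 1.33e-05).

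Markers of the cells that the tissue could hold were read in the same libraries. Of 10 genes that define striatal neurons, Isl1, Six3, Foxp2 and Gpr6 had means under 0.5 RPKM over the 18 libraries, although none was at 0 in every library, so that the defining set was sparse in this hippocampal tissue. Of the 6 others, Drd1 and Penk fell and 4 were not called. All 10 are also on the list of medium spiny neuron genes above, where these falls were already counted. The summed level of the 10 genes was 32.5 to 45.3 RPKM in WT and 22.2 to 26.8 RPKM in R6/1. Of the 7 markers of dentate granule neurons all 7 fell (median log2 difference -1.22), and their sum was 102 to 149 RPKM in WT and 57.5 to 66.7 RPKM in R6/1, without overlap. All 4 CA3 markers fell (median -1.05), 5 of 6 CA1 markers fell and 1 rose (median -0.38), and 6 of 8 markers of inhibitory neurons fell (median -0.33). Markers of astrocytes (5 of 5), oligodendrocytes (4 of 5), microglia (3 of 5) and hilar mossy cells (3 of 3) fell as well, 1 of 5 endothelial markers fell (3 without the first WT replicate and 2 without the fifth R6/1 replicate), and none of 8 choroid plexus markers was called. Markers of thalamus, which borders the dissected region, fell for 3 of 4 genes, with sums of 15.7 to 64.9 RPKM in WT and 8.02 to 16.4 RPKM in R6/1. The sixth WT library held the highest of these sums, 64.9 RPKM. That library also held the highest WT value of Drd2 (1.74 RPKM) and of Adora2a (1.17 RPKM). Without it the log2 difference was -2.15 for Lrrc10b, -1.06 for Rasd2, -0.65 for Ppp1r1b and -0.58 for Bcl11b. That of Drd2 was -0.39 against -0.45 with it, and that of Adora2a -0.09 against -0.13. Rasgrp2 stood at -0.36 against -0.37, and Rarb at 0.12 against 0.11. The choroid plexus sum spread widely in both genotypes (26.0 to 1080.5 RPKM in WT, 39.2 to 1749.8 RPKM in R6/1). What part any of these cell types has in the differences of the 8 genes was not tested.

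Whether the genes vary together from library to library was examined within each genotype, since the genotype difference played no part there. For each pair, Pearson's r over 9 libraries was tested with a two-sided exact permutation test, giving 56 tests. No pair passed after adjustment (lowest adjusted p 0.44), and 3 had an unadjusted p under 0.05, all in WT. Rasd2 and Bcl11b rose and fell together in WT (r 0.783, exact p 0.0157; rho 0.867, exact p 0.00451; adjusted p 0.44), and r was 0.766 without the 2 libraries farthest from the median of Rasd2. In R6/1 their r was -0.0546. Lrrc10b and Rasgrp2 ran in opposite directions in WT (r -0.811, exact p 0.00901; rho -0.783, exact p 0.0172; adjusted p 0.44), with r -0.923 without the 2 farthest libraries and -0.317 in R6/1. Lrrc10b and Rasd2 had r 0.688 in WT (exact p 0.0441; rho 0.70, exact p 0.0433; adjusted p 0.655), which fell to 0.425 without the 2 farthest libraries and so rests on them. For the indirect-pathway receptors Adora2a and Drd2, r was -0.0712 in WT and -0.11 in R6/1, but with so few reads much of their spread is counting error, and whether they vary together cannot be read from these libraries. The sign of r was the same in both genotypes for 17 of 28 pairs, and the median r was 0.022 in WT and -0.0247 in R6/1. The differences in r between genotypes were not tested, and all values share the depth scaling of their library.

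**Figure D3:**
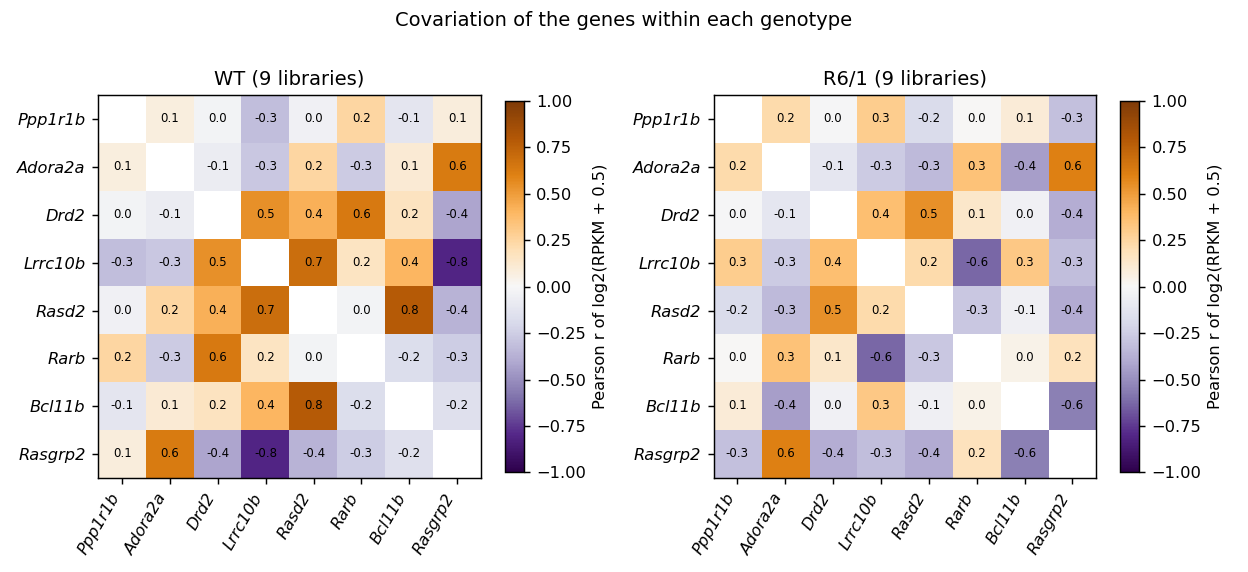
Pearson's r between each pair of the 8 genes over the 9 libraries of one genotype, on log2(RPKM + 0.5), with WT on the left and R6/1 on the right (purple negative, orange positive). No pair passed the exact permutation test after adjustment; the strongest cells are in WT, Rasd2 with Bcl11b at 0.783 and Lrrc10b with Rasgrp2 at -0.811.

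The genes were also set against the mean log2 level of the dentate and of the striatal markers within each genotype (32 tests, none past the threshold after adjustment, lowest adjusted p 0.0747). In WT, libraries with more dentate marker RNA had more Rasd2 (r 0.859, exact p 0.00378; rho 0.80, exact p 0.0138; adjusted p 0.0747) and more Bcl11b (r 0.859, exact p 0.00467; rho 0.85, exact p 0.00607; adjusted p 0.0747). Libraries were left out by their distance from the median level of the marker list compared, not of the gene. Without the 2 farthest, r was 0.827 for Rasd2 and 0.886 for Bcl11b. In R6/1, where the marker level covered a narrower range, r was 0.10 for Rasd2 and 0.33 for Bcl11b. Rasgrp2 went with the striatal markers in WT (r 0.744, exact p 0.0207; rho 0.767, exact p 0.0214; adjusted p 0.221; r 0.754 without the 2 farthest libraries). Adora2a did so too (r 0.703, exact p 0.0354; rho 0.75, exact p 0.0255; adjusted p 0.284), with r 0.504 without those libraries. Adora2a had 16 to 48 reads per WT library, and counting error alone would give a coefficient of variation of 17.3% against 26.8% observed. In R6/1, r against the striatal markers was 0.458 for Rasgrp2 (exact p 0.216) and 0.544 for Adora2a (exact p 0.13). Without the 2 farthest libraries these were 0.79 and 0.973. For Lrrc10b the WT value against the dentate markers was 0.56 (exact p 0.118), and 0.0222 without the 2 farthest libraries.

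**Figure D4:**
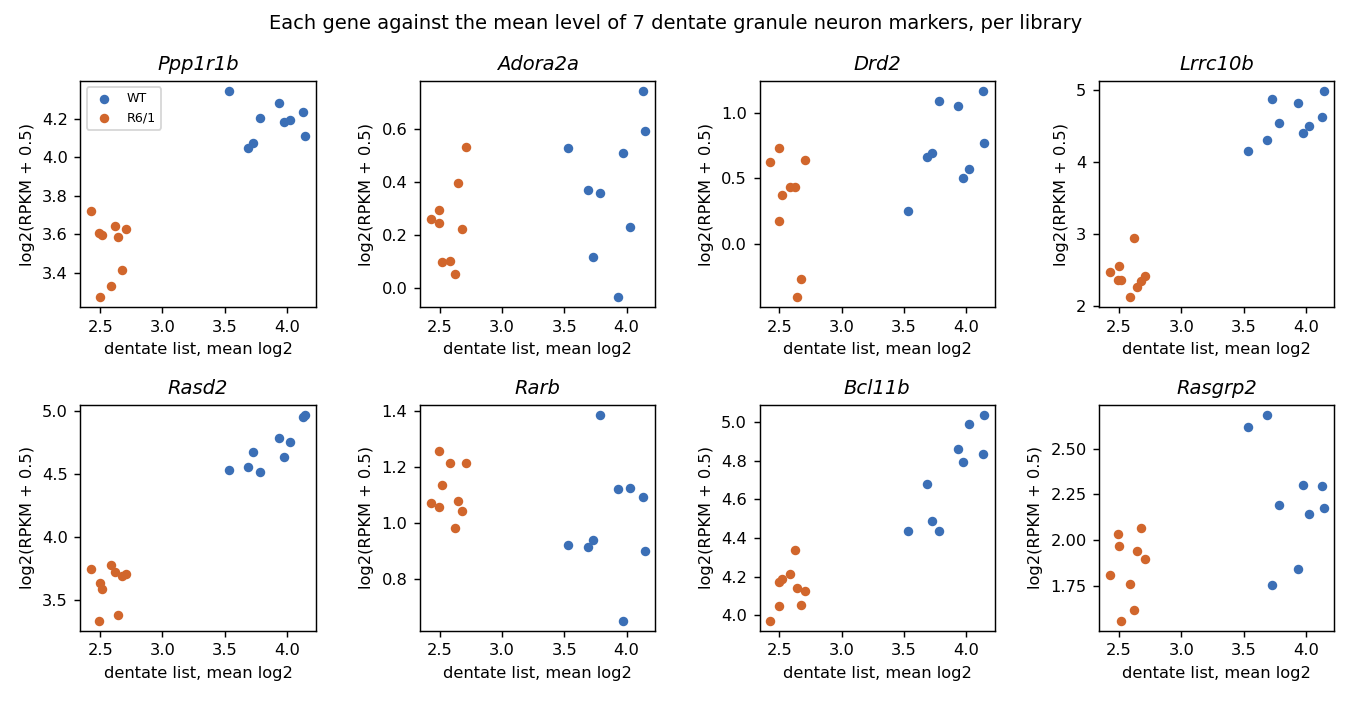
Level of each of the 8 genes (y axis, log2(RPKM + 0.5)) against the mean log2 level of 7 dentate granule neuron markers (x axis) in 9 WT (blue) and 9 R6/1 (orange) libraries. The genotypes form separate clouds along x in every panel, and within WT the points of Rasd2 and Bcl11b rise along x (r 0.859 each).

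Genes with the most similar pattern were found from the deviations of each library from its genotype mean, over 18 libraries and 13105 genes that averaged 1 RPKM or more. Bcl11b was closest to Kcnab1 (r 0.882), Chst15 (0.846) and Prox1 (0.821), the last a gene of the dentate marker list. Rarb was closest to Wnt4 (r 0.911), Vstm4 (0.844) and Col18a1 (0.844), and Ppp1r1b to Zfp622 (r 0.896), Marc2 (0.794) and Snapin (0.788). Lrrc10b was closest to Cnih2 (r 0.842), Slc35c2 (0.818) and Chst1 (0.802). For Rasd2 these were Nkain2 (r 0.813), the table's row Mir6958 (0.807) and Dagla (0.796), and for Rasgrp2 Rassf3 (r 0.84), Vwc2l (0.828) and Plxdc1 (0.825). Among the closest genes to Drd2 were Tmem231 (r 0.79) and Ache (0.762), and the closest to Adora2a were Cry1 (r 0.769), A230070E04Rik (0.766) and Wnt9a (0.743). These are the highest of 13105 values per gene over libraries that share their scaling, and are given as a description.

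Lamin B1 lines the inner face of the nuclear envelope, and its ChIP-seq signal marks long domains of chromatin at the nuclear edge in which genes are often silent. Of the 8 genes only Rasd2 had its start in such a domain, and it did so in both genotypes: 75887001 to 79402000 of chromosome 8 in WT (3.52 Mb) and 75887001 to 79365000 in R6/1 (3.48 Mb). Of 12430 tested protein-coding genes placed on the genome, 13.1% had their start in a WT domain and 8.09% in an R6/1 domain. Rasd2 ranked second in RPKM among the 8 genes in both genotypes.

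The other 7 genes were outside domains in both lists. Adora2a was the nearest, at 0.484 Mb from the same domain in WT and R6/1. Ppp1r1b (4.78 Mb in WT, 4.90 Mb in R6/1), Drd2 (9.15 and 9.11 Mb) and Bcl11b (5.31 Mb in both) were far from any. For Rarb, Rasgrp2 and Lrrc10b the nearest domain was another one in R6/1. A domain of 2.96 Mb on chromosome 14 (9361001 to 12321000), listed in R6/1 and sharing no base with a WT domain, brought the distance of Rarb from 18.5 to 5.33 Mb. A domain of 0.925 Mb on chromosome 19 (7696001 to 8621000), likewise in the R6/1 list alone, stood 1.30 Mb from Rasgrp2 and 1.91 Mb from Lrrc10b, against 6.51 and 2.38 Mb in WT. With 1 list per genotype these distances have no replicate spread and no test.

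**Figure D5:**
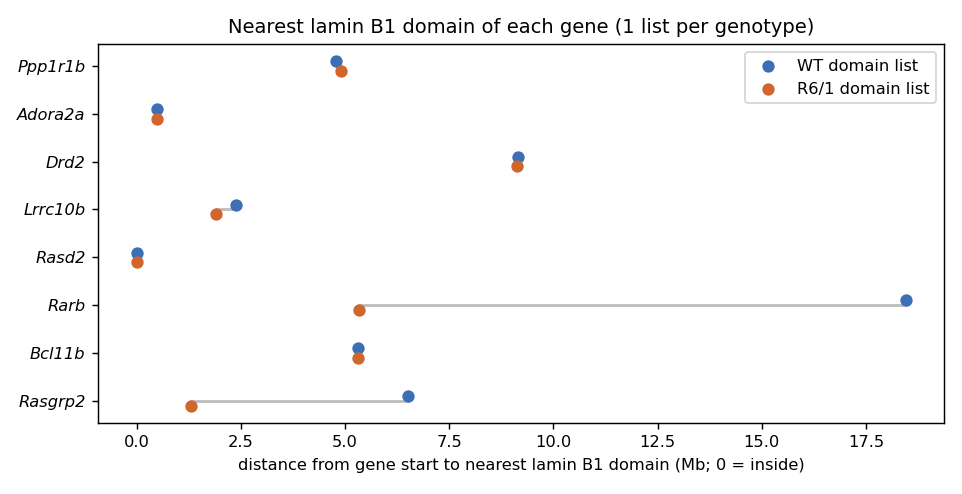
Distance in Mb (x axis) from the start of each of the 8 genes to the nearest lamin B1 domain in the WT (blue) and the R6/1 (orange) list, joined by a line. Rasd2 is inside a domain in both lists, and the longest line is that of Rarb, at 18.5 Mb in WT and 5.33 Mb in R6/1.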

How the data were processed

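The submitters' processing notes name TopHat and DESeq2 for the RNA-seq, Bowtie for the ChIP-seq and build mm9 (NCBIM37); the counter, the annotation and the use of strand are not given in the sources used here. The authors deposited RPKM per gene and library, and a table with a mean normalized count signal, a log2 fold change, a test score and a p-value per gene. The authors' domain lists give 1 score per domain, which was not used. Whole reads were recovered from the RPKM steps (at least 99.76% whole within 0.05 of a read). They served for depth, for reads per gene, for counting errors and for the depth of the simulated libraries. Counting errors cover counting only.

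The genes and lists were chosen with earlier results of these data known. Genes were tested with limma 3.58.1 (R 4.3.3; lmFit and eBayes with trend, two-sided) on log2(RPKM + 0.5). In data simulated for this comparison, 49, 50, 49 and 48 of 14372 tested genes were changed by log2 0.3, 0.6, 1 and 2. There limma recovered 42.9%, 90.0%, 98.0% and 100% of them, and 2.41% of its calls were false. The share changed was far smaller than the 48.3% called in the real libraries, so these rates need not hold there. From each of 6 lists, up to 4 called genes with the largest change were named, plus relatives needed for a sentence, and for each of the 8 genes the 3 most similar; some genes under this rule are not reported here. Markers came from 12 lists. Rap1a, Rap1gap, Rasgrp4, Strn, Gng7, Pde1b, Ptpn5, Adcy5, Pde10a, Rgs9, Gnal, Ppp1ca, Ppp1cb, Ppp1cc, Sp9, Smarcc1, Rapgef2 and Rdh10 were named after their values were seen. So were Cdk5, Cdk5r1, Arpp19, Arpp21, Prkar1a, Prkar1b, Prkar2a, Prkaca and Prkar2b. ATAC-seq and ChIP reads were not analysed here, and 0 columns of sample values were left unused.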

Additional observations from a re-analysis of the deposited data

Results flagged for a closer look

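Lrrc10b in the fourth R6/1 replicate, at 7.14 RPKM, stood apart from the other 8 R6/1 libraries, of which the next highest was at 5.38 RPKM. The gap was 0.535 of the range of the 9 libraries, above the critical value of Dixon's test for 9 samples. Without this library the log2 difference was -2.22, against -2.16 with it, and the library was still below every WT library. This was 1 of 16 groups of values examined (8 genes in 2 genotypes), and chance flags about 1 in 20, or 0.8 of 16.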

How the results depend on the processing

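Over 28 alternatives (other pseudocounts and filters, quantile normalization, median centring, own-total scaling, the replicate block, the authors' deposited table, a choroid plexus covariate added after seeing the data, and each of 18 libraries left out), the called genes numbered 6156 to 7638 against 6980. Leaving out 1 library gave 6661 to 7176. Scaling by each library's own total of reads made 5113 genes higher and 2525 lower, so that 66.9% of calls were higher against 51.4%, and moved the median log2 difference of all genes from 0.00 to 0.07. For the genes called over all genes, the fit with the replicate block gave 7133, 3666 higher and 3467 lower in R6/1. Same-numbered libraries of the 2 genotypes had deviations correlated at -0.0533 to 0.237 (median 0.0866), with 3 of 9 pairs over 0.1 and 2 of 9 libraries closest to their own number, so the numbers were not taken as a pairing. The block changed the calls of Rapgef2, Rarg and Rdh10 among the listed genes, all to called. None of the 8 genes changed its direction under any alternative run. Leaving out 1 library, the log2 difference ran from -2.22 to -2.11 for Lrrc10b, from -0.51 to -0.36 for Drd2, from -0.19 to -0.09 for Adora2a and from 0.07 (without the eighth WT replicate) to 0.16 for Rarb. Of 101 tested genes of the 6 related lists, 84 stayed on the same side of the threshold under every alternative. Of the same 101, 17 crossed it under at least 1, and 0 reversed. Genes found only on the marker lists are not in this count. With a filter of 2 RPKM, 1 striatal defining marker was called instead of 2. Depth limits Drd2 and Adora2a most, with as few as 6 and 16 reads in a library.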

Other observations

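In a comparison added after seeing the data, the 8 genes were set against the mean log2 level of 8 choroid plexus markers within each genotype (16 tests over 9 libraries each, none past the threshold after adjustment, lowest adjusted p 0.204). Drd2 followed the markers in WT (r 0.755, exact permutation p 0.0256, and rho 0.733, exact permutation p 0.0311) and had r 0.0174 in R6/1. Without the 2 libraries farthest from the median of the marker level, its WT r was 0.598. Ppp1r1b followed them in R6/1 (r 0.758, exact permutation p 0.019; rho 0.767, exact p 0.0214; r 0.867 without the 2 farthest libraries) and had r 0.154 in WT.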
